A study of Mus musculus with 17 samples.

Results

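The genes described here are the core of the pathway by which cells read TGF-β (transforming growth factor β): the receptors Tgfbr1, Tgfbr2 and Tgfbr3, the signal carriers Smad2, Smad3 and Smad4, the inhibitory Smads Smad6 and Smad7, and the Smad corepressors Ski and Skil. They were chosen by their place in the pathway and not by their values, and they are 10 of the 30406 genes that all 17 libraries list. Each was found by its Ensembl identifier, such as ENSMUSG00000007613 for Tgfbr1 and ENSMUSG00000032440 for Tgfbr2, and all 10 are protein-coding.

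The libraries are single-cell RNA sequencing of mouse cells sorted for green fluorescent protein (GFP). The aim of the study was to learn how SARA (Smad anchor for receptor activation, gene Zfyve9) affects PDGFRβ+ cells during fibrosis. Every group carried PDGFRb-Cre, which is active in pericytes and also in leukocytes, and the Z/EG reporter, which turns cells with a history of Cre activity GFP positive. SARATg mice in addition carried human SARA behind a stop cassette that Cre removes, while WT mice lacked it. Mice were 8 weeks old. In skin they were injected subcutaneously with bleomycin at 20 mg/kg, or with PBS, for 2 weeks, 3 times a week by the sample labels and daily by the study's methods. The groups were WT PBS (3 libraries), WT bleomycin (3), SARATg PBS (1) and SARATg bleomycin (1). In kidney, mice received aristolochic acid (AA) at 5 mg/kg, or vehicle, 3 times a week for 3 weeks. The groups were WT vehicle (3 libraries), WT AA (3), SARATg vehicle (2) and SARATg AA (1). How many mice went into a library was not given in the sources used here, so p-values measure the spread between these libraries.

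TGF-β binds Tgfbr2, a kinase that then switches on the kinase Tgfbr1, and Tgfbr3 (betaglycan) is a coreceptor that presents the ligand. The active receptor phosphorylates Smad2 and Smad3, which enter the nucleus with Smad4 and regulate genes of matrix and growth control. Smad7 and Smad6 are induced by the pathway and its bone morphogenetic protein (BMP) branch and hold the receptors in check, and Ski and Skil (SnoN) bind the Smads on DNA and repress their targets. In fibroblasts and pericytes this pathway is the best known driver of myofibroblast formation.

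In the mouse genome GRCm38, Tgfbr1 lies at chr4:47353222-47414931 and Ski at chr4:155154075-155222592. Tgfbr2 lies at chr9:116084293-116175360, Smad3 at chr9:63646767-63757994 and Smad6 at chr9:63953076-64022059. Tgfbr3 lies at chr5:107106570-107289629 and Skil at chr3:31095058-31122577. The promoters of Tgfbr1 and Tgfbr2, the 2 members that passed the main edgeR test, are shown from 250 bases before to 50 bases after the RefSeq start (GRCm38.p6), read on the strand of the gene with GGGCGG, the GC box, in capitals. The first covers chr4:47352972-47353271 on the plus strand and the second chr9:116175314-116175613 on the minus strand. For Tgfbr1, 2 promoters were listed and 1 is shown.

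Tgfbr1: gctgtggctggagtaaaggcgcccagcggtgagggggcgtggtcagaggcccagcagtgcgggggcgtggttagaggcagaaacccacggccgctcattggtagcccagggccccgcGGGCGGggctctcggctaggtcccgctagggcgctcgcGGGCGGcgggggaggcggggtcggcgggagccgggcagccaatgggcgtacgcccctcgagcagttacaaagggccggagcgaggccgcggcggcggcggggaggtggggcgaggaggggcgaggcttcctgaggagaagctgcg

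Tgfbr2: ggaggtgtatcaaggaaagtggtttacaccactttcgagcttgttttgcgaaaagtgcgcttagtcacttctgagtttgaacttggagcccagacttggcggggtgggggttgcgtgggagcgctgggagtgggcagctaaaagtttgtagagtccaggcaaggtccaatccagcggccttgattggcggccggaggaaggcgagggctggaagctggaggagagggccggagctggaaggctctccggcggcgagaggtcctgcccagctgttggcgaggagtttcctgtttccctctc

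The Tgfbr1 promoter shown was 74.7% G or C with 34 CpG dinucleotides, against a median of 52.7% G or C over 32851 promoters of the table, and the Tgfbr2 promoter was 59.0% with 15. On either strand, GGGCGG occurred 2 times in the Tgfbr1 window and not in the Tgfbr2 window, and 35.7% of all promoters held it. CAGAC, the core of a Smad binding element, occurred once at Tgfbr2 and not at Tgfbr1, and 49.6% of all promoters held it. CCAAT occurred 2 times at each (37.4% of all promoters), and TATAAA (13.6%) and TGANTCA (7.81%) at neither. These matches describe letters only.

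The libraries held 3355217 to 69765525 unique molecular identifiers (UMIs, counted transcripts) in skin and 28660151 to 137093834 in kidney, and 95444 cells were kept. Cells were assigned to a type when they showed enough of that type's fixed marker genes. Levels are CPM, counts per 1000000 UMIs, summed over the cells of a type in a library. By markers, skin held 3079 fibroblasts and 123 mural cells (pericytes and smooth muscle), and kidney held 48 and 55, with 26275 proximal tubule cells and 16229 T or innate lymphoid cells in their place. Pdgfrb averaged 114 CPM in skin fibroblasts, 49.7 in skin mast cells and at most 15.3 in every other type tested, with at most 5.69 in the kidney types. Mural cells were too few to enter any comparison. The study calls the skin fibroblast-like cells noncanonical pericytes and allows that fibroblasts may be among them. Here they are called fibroblasts for the markers that gated them, and since the gate used the fibroblast and mural lists, the levels of those lists in it do not test either name.

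The transgene was read through Zfyve9, and some libraries went against their labels. In skin, Zfyve9 was at 314 CPM in SARATg PBS and 221 in SARATg bleomycin, at 7.83 to 25.8 in 5 libraries labelled WT, and at 615 in the library labelled WT PBS 3. The library labelled WT PBS 1 had 838 CPM of the human ZFYVE9 entry that 4 libraries list, and the other 3 of them, also labelled WT, had 87.4 to 187. In kidney the library labelled WT AA 1 had 163 CPM and the library labelled SARATg AA had 19.9, against 89.8 and 92.2 in SARATg vehicle and 10.3 to 31.5 in the other WT libraries. Of the cell barcodes of WT PBS 1, PBS 2, bleomycin 1 and bleomycin 2, the 4 libraries made with the longer gene list, 7.38%, 55.5%, 17.6% and 22.1% also occurred in another skin library, against 0.594% to 0.824% in the other 4. WT names the label only in what follows. The 2 fibroblast results that passed a test are therefore also given without shared barcodes and without the libraries labelled WT PBS 1 and 3. Other genes that passed are given without shared barcodes, and rest on those PBS libraries wherever PBS 2 held too few cells of the type.

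Levels were ranked over the types with at least 3 libraries. With at least 50 cells and 200000 UMIs per library, 5 of the 10 members kept the same highest type in skin, with the stricter gate 8, and in kidney all 10 did under both. Across skin cell types Tgfbr1 was highest in mast cells, at 279 ± 149 CPM (SD, n = 7 libraries), with neutrophils next at 100 ± 38.8 (n = 6). Schwann cells followed, then fibroblasts at 43.6 ± 20.5 (n = 8), with NK cells and endothelial cells (40.8) close below. Tgfbr2 had its highest means in endothelial cells (382 ± 125, n = 4) and fibroblasts (352 ± 187, n = 8), and mast cells followed at 169 ± 44.8. These means pool PBS and bleomycin libraries, and over the 4 libraries that held both types, an average added after seeing the data, fibroblasts averaged 436 ± 130 and endothelial cells 382 ± 125, the other order. The coreceptor Tgfbr3 was highest in fibroblasts (185 ± 61.1), then in endothelial (143 ± 68.6) and Schwann cells (111 ± 60.7), and lay between 1.07 and 17.9 CPM on average in the leukocyte types and keratinocytes. Its level in macrophages was 1.88 ± 1.43 CPM. Fibroblasts were thus among the 4 highest types for each of the 3 receptors, for Tgfbr1 by a margin well inside the SD.

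Of the Smads that carry the signal, Smad2 and Smad4 varied less between types than Smad3. Both, with the inhibitor Smad7, are on chromosome 18. Smad2 averaged from 26.4 ± 9.61 CPM in skin neutrophils to 62.7 ± 12.2 in mast cells, and Smad4, the partner of all receptor Smads, from 53.2 ± 12.0 in neutrophils to 101 ± 18.5 in Schwann cells (n = 6). Smad3 ran from 4.66 ± 3.13 in dendritic cells to 46.4 ± 29.5 in NK cells (n = 3) and 35.7 ± 13.2 in T or innate lymphoid cells. In kidney Smad3 was again highest in NK cells (42.6 ± 12.8, n = 9) and in dendritic cells averaged 0.516 ± 0.623 CPM (n = 8).

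Among the inhibitors, Smad6 was highest in endothelium of both tissues, at 14.3 ± 6.10 CPM in skin and 46.5 ± 17.0 (n = 8) in kidney, and no UMI of it was found in kidney dendritic cells, where 3 UMIs would have been 1.46 to 13.2 CPM in the 8 libraries. Smad7 was highest in skin mast cells (588 ± 161), with T or innate lymphoid cells at 292 ± 96.3 and fibroblasts at 161 ± 43.6. The corepressor Ski averaged 186 ± 40.4 CPM in mast cells and 185 ± 45.0 in Schwann cells, and 140 ± 35.1 in fibroblasts. Skil had its highest means in skin NK (269 ± 51.7) and T or innate lymphoid cells (256 ± 65.1), beside 350 in the 1 library with enough B cells, and was at 122 ± 35.7 in fibroblasts.

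In kidney, endothelial cells had the highest mean level of 8 of the 10 members, among them Tgfbr2 (234 ± 43.6 CPM), Tgfbr3 (57.1 ± 21.6), Smad7 (180 ± 123) and Skil (85.5 ± 41.2). The exceptions were Smad3 and Tgfbr1. The 1 library with enough kidney fibroblasts to give a level, SARATg vehicle 2, was not ranked and had more Tgfbr3 (433 CPM), Ski (129) and Smad4 (124) than the endothelial means. Kidney macrophages carried Tgfbr1 at 201 ± 94.4 CPM (n = 9, 87.1 to 324), above distal convoluted tubule cells at 56.7 ± 11.2 in 9 of 9 libraries. Proximal tubule cells, the most frequent kidney type, had 24.2 ± 5.33 CPM of Tgfbr1 and 33.3 ± 17.3 of Tgfbr2. Neighbours in these orders were compared within libraries by a two-sided exact sign-flip permutation test. None of the 100 skin and 110 kidney pairs differed after adjustment, where the lowest adjusted p was 0.446 and 0.123, and 9 and 12 pairs had an unadjusted p below 0.05. The smallest p that 7 and 9 shared libraries allow is 0.0156 and 0.00391.

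**Figure D1:**
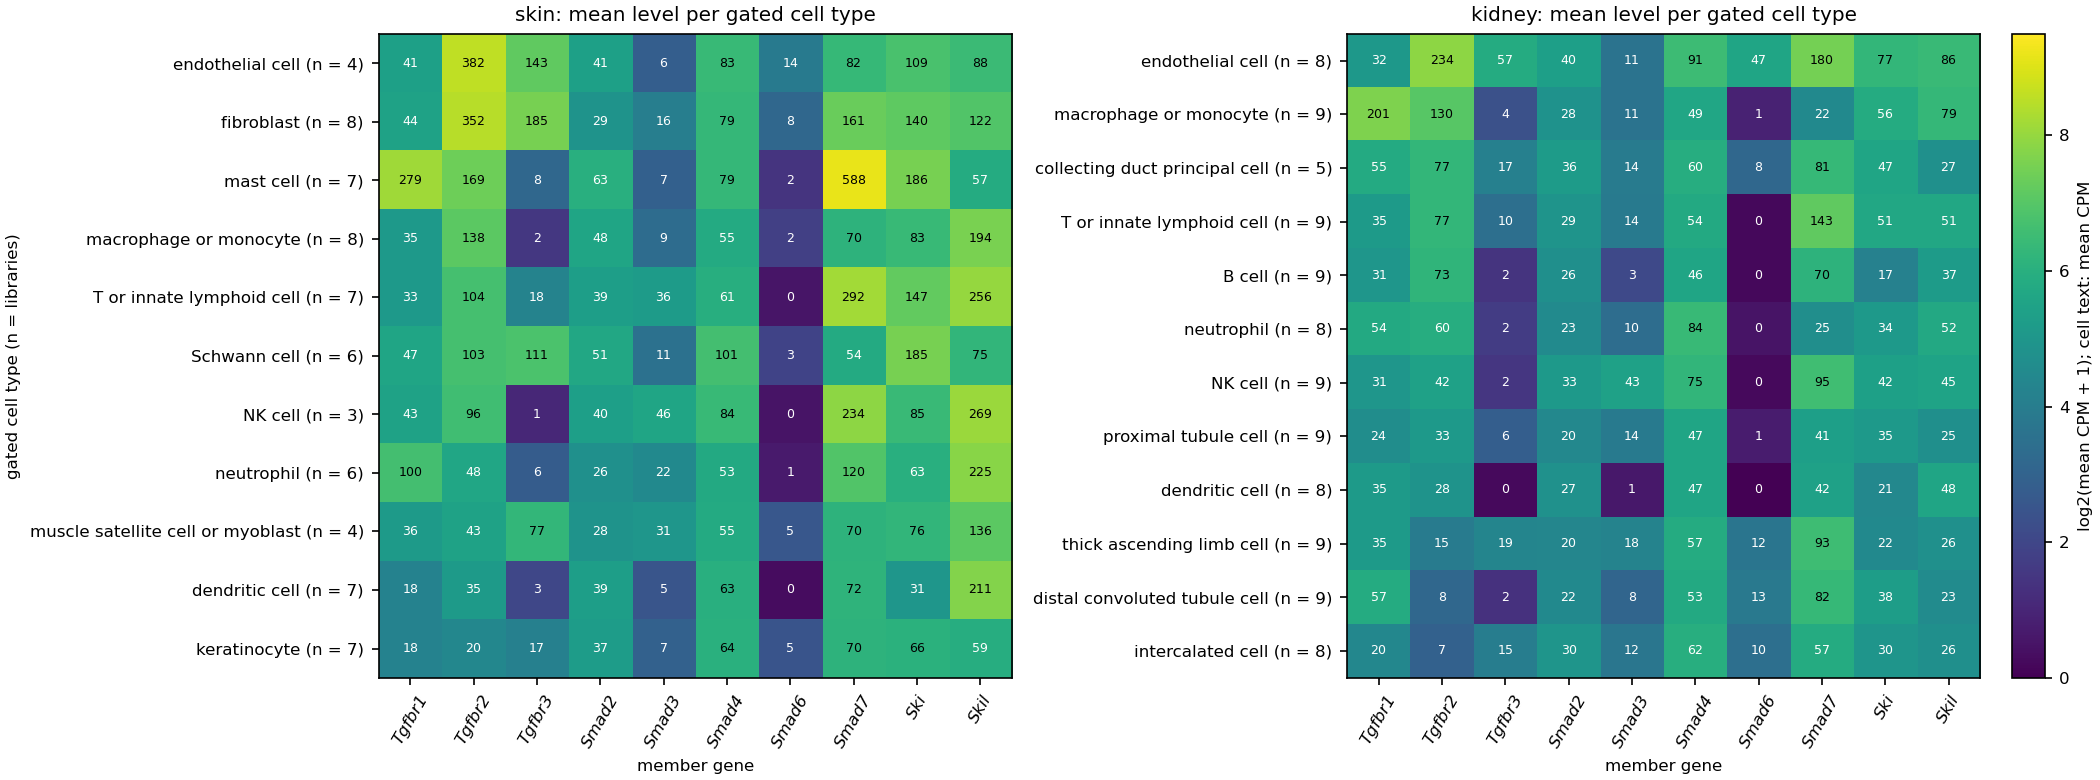
Mean level of each of the 10 genes (columns) in each cell type of skin and kidney (rows, with the number of libraries), with log2(mean CPM + 1) as colour, bright for high, and the mean CPM written in each cell. Tgfbr2 is bright in skin fibroblasts (352 CPM) and in the endothelium of skin (382) and kidney (234), Smad7 is brightest in skin mast cells (588), and Smad6 is the darkest column.

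Both TGF-β kinase receptors were lower in skin fibroblasts of the libraries labelled WT bleomycin than in those labelled WT PBS. The transgene reading moved the same way. Human ZFYVE9 was at 838 and 187 CPM in PBS 1 and 2 against 87.4 and 111 in bleomycin 1 and 2. Zfyve9 was at 615 CPM in PBS 3 against 8.76 in bleomycin 3. Treatment and transgene reading therefore cannot be told apart in this comparison. Tgfbr1 was at 76.7, 63.5 and 55.4 CPM in WT PBS 1 to 3 and at 24.8, 25.4 and 37.0 in WT bleomycin 1 to 3, from 49 to 697 and from 39 to 92 UMIs per library. Every bleomycin library was below every PBS library. The mean fell from 65.2 ± 10.8 to 29.1 ± 6.89 CPM (SD, n = 3), a log2 fold change of -1.13 with a standard error (SE) of 0.21 and an adjusted p of 0.0418 by edgeR's quasi-likelihood test. Tgfbr2, the receptor that binds the ligand, was at 522, 587 and 503 CPM with PBS and at 123, 204 and 244 with bleomycin, again without overlap. Its mean fell from 538 ± 43.8 to 190 ± 61.9 CPM, a log2 fold change of -1.48 (SE 0.26, adjusted p 0.0377).

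These were the 2 calls among the 76 pairs of a member and a cell type (8 gated types and all cells together) with enough counts to be tested of 90. Over all genes and types 0.626% of tests were called, and in fibroblasts alone 2.45% of 10827 genes, 1.11% as lower. The replicate numbers were taken to pair the skin libraries, from the data and not from a stated design. With the number as a block, where 3.76% of all tests were called, 6 pairs were: Tgfbr1 (-1.13, adjusted p 0.0345) and Tgfbr2 (-1.52, adjusted p 0.0186) in fibroblasts, Smad6 in macrophages, Smad7 in keratinocytes, Tgfbr3 in Schwann cells and Tgfbr3 over all cells. DESeq2 called 8 pairs, where it called 6.5% of all its tests: Tgfbr1, Tgfbr2, Skil and Tgfbr3 in fibroblasts, Smad6 in macrophages, Smad7 in keratinocytes, and Tgfbr2 and Tgfbr3 over all cells.

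The calls rested on having all 6 libraries. Leaving out any 1 of them ended both, with adjusted p from 0.0684 to 0.181 for Tgfbr1 and from 0.0515 to 0.128 for Tgfbr2, while the log2 fold changes stayed between -1.32 and -1.03 and between -1.69 and -1.26. Leaving out cells whose barcode occurs in another skin library kept 513, 31 and 333 fibroblasts with PBS and 37, 61 and 134 with bleomycin. PBS 2 then held 95369 of its 771685 fibroblast UMIs, so its levels are coarse. Bleomycin 1 then held 428399 of 2659334 and bleomycin 2 held 721488 of 1537904. Tgfbr1 was at 79.8, 105 and 54.8 CPM with PBS and 28.0, 34.7 and 37.6 with bleomycin (log2 fold change -1.05, adjusted p 0.181). Tgfbr2 was then at 589, 493 and 504 against 210, 226 and 247 CPM (-1.16, adjusted p 0.134), and the groups still did not overlap. Without the libraries labelled WT PBS 1 and 3 the estimates were -1.11 and -1.62, from 1 PBS library. That library, PBS 2, itself had 187 CPM of human ZFYVE9 and shared 54.9% of its barcodes with WT bleomycin 2. Leaving out the other PBS libraries therefore cannot settle the question of labels or barcodes. Within the libraries of the longer gene list Tgfbr1 differed by -1.48 and Tgfbr2 by -1.77 on the log2 scale of the means, and in the 1 pair of the shorter list by -0.58 and -1.04.

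The other 8 members did not pass in fibroblasts by edgeR, while DESeq2 called Skil (adjusted p 0.0285) and Tgfbr3 (adjusted p 0.0416). Tgfbr3 was at 197, 272 and 250 CPM with PBS and 153, 176 and 116 with bleomycin (-0.67, SE 0.24, adjusted p 0.143). Smad6, the inhibitor of the BMP branch, was at 15.3, 13.0 and 8.35 against 5.64, 5.85 and 4.43 CPM, from 9 to 139 UMIs per library (-1.15, SE 0.34, adjusted p 0.0984). Skil was at 162, 150 and 172 against 100, 98.2 and 123 CPM (-0.57, SE 0.19, adjusted p 0.121), and Ski at 168, 193 and 149 against 97.8, 119 and 132 (-0.52, SE 0.19, adjusted p 0.149). In each of these 4 genes, and in Smad3 (-0.65, adjusted p 0.183) and Smad7 (-0.51, adjusted p 0.254), every bleomycin library lay below every PBS library.

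Smad2 and Smad4 were the members whose groups overlapped. Smad2 was at 30.5, 25.9 and 28.9 CPM with PBS and 25.2, 31.2 and 31.4 with bleomycin (0.05, SE 0.20), and Smad4 at 83.2, 80.3 and 91.4 against 72.6, 73.5 and 88.1 (-0.10, SE 0.19). In all, 8 of 10 members lay lower without overlap, where 15.2% of all genes tested did. Without shared barcodes, a count added after seeing the data, this fell to 5 of 10 (Tgfbr1, Tgfbr2, Tgfbr3, Smad6 and Skil) against 9.94% of genes. With all cells, 7 of 10 had an unadjusted p below 0.05, where 12.1% of genes were lower and 12.5% higher at that p. The median log2 fold change of the members was -0.61, against -0.01 over all genes tested.

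**Figure D2:**
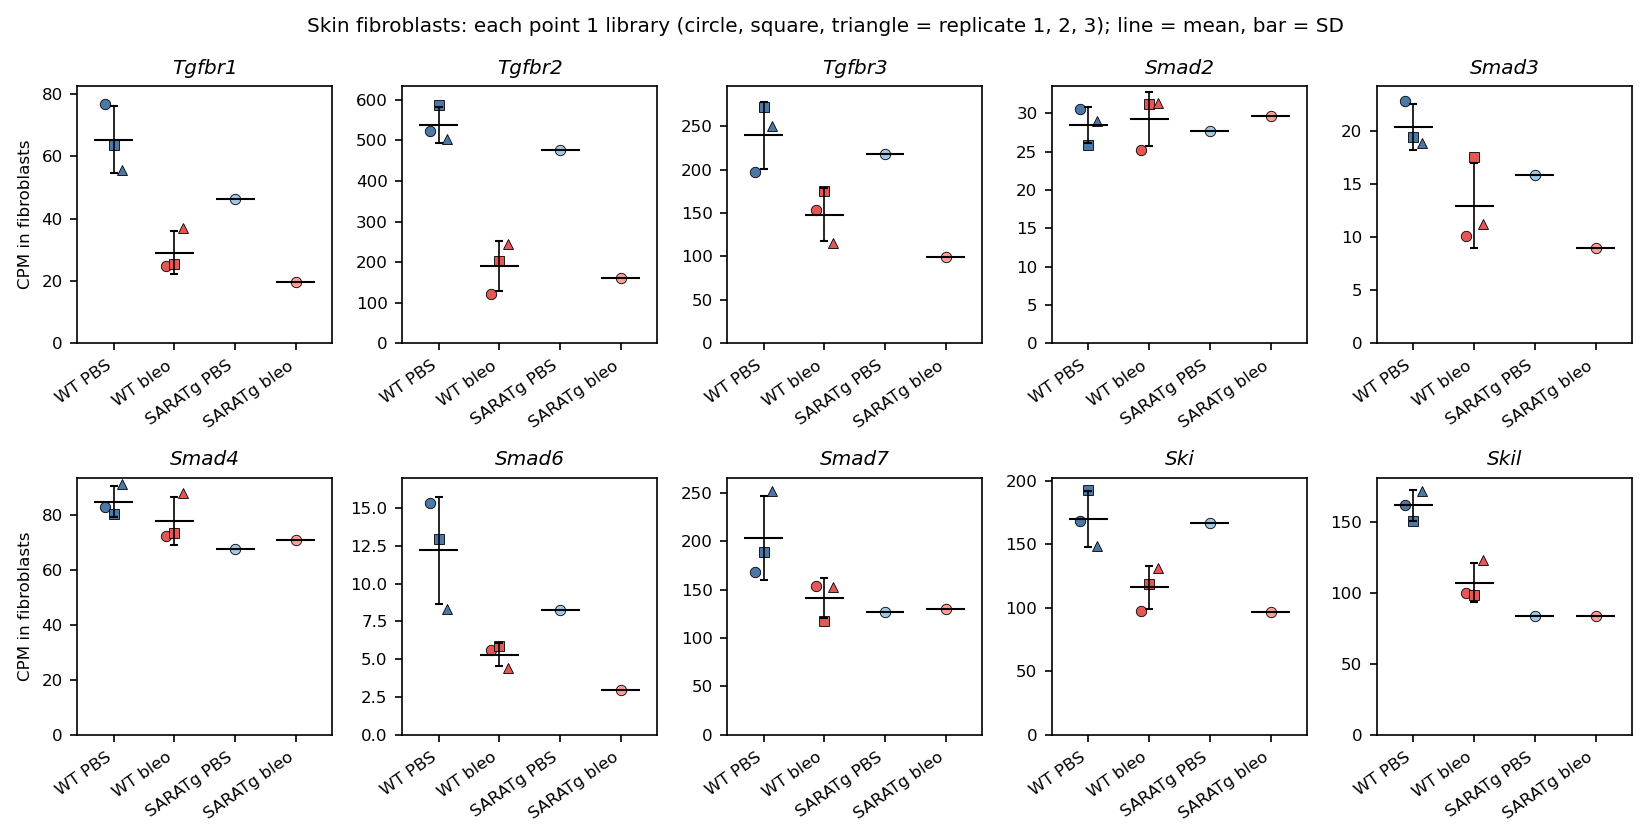
CPM of each of the 10 genes in skin fibroblasts, 1 point per library with its shape for the replicate number, in the 4 groups WT PBS, WT bleomycin, SARATg PBS and SARATg bleomycin, with a line at the mean and a bar of 1 SD where n = 3. Tgfbr2 lies between 503 and 587 CPM with PBS and between 123 and 244 with bleomycin in WT, and the points of Smad2 and Smad4 overlap.

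The make-up of the fibroblast gate moved with treatment. Pi16, a marker of universal or adventitial fibroblasts, was at 867, 1179 and 330 CPM with PBS and 100, 200 and 35.4 with bleomycin. Crabp1, a retinoic acid binding protein, was at 105, 130 and 104 against 1336, 537 and 568 CPM, and Cthrc1, a secreted protein of activated fibroblasts, at 22.8, 62.2 and 86.4 against 439, 222 and 101. Mfap5, another adventitial gene, was at 507, 608 and 350 against 257, 233 and 201 CPM, Pdgfrb at 124, 174 and 199 against 71.4, 78.03 and 64.4, and Acta2, smooth muscle actin, at 674, 115 and 16.5 against 958, 706 and 418. The fibroblast marker list summed to 33716, 46338 and 55262 CPM with PBS and 19101, 34044 and 26561 with bleomycin. The pan-leukocyte gene Ptprc was between 2.59 and 15.3 CPM. The endothelial list summed to 79.7, 131 and 72.5 CPM with PBS and 29.0, 51.4 and 54.3 with bleomycin, and the keratinocyte list to 46.7, 45.4 and 50.1 against 10.9, 35.1 and 18.1, both lower without overlap. Cells per library were 670, 163 and 335 against 153, 208 and 136. The median UMIs per cell were 10954, 1082 and 13924 with PBS and 1744, 1124 and 12680 with bleomycin. The part of these shifts in the receptor levels was not tested.

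Neighbouring genes of the pathway, taken from lists chosen by function, gave no call in fibroblasts by edgeR. Of 8 tested receptors for activins and BMPs, 7 had a log2 fold change below 0 with a median of -0.54. Among them Acvrl1 (ALK1, an endothelial-type receptor for BMP ligands) went from 48.5 ± 12.2 to 23.2 ± 3.77 CPM (-1.05, adjusted p 0.0802) and Bmpr1a from 91.6 ± 26.0 to 53.2 ± 9.58 (-0.75, adjusted p 0.0964). Of 9 other regulators, 7 were below 0, with Tgif2, a Smad corepressor, lowest at -1.28 (adjusted p 0.0576). The 6 TGF-β response genes had a median of 0.02 with 3 below 0.

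By the main edgeR test no member passed in any other skin cell type. In macrophages 4 members lay higher with bleomycin without overlap, where 7.19% of genes tested did, and 2 lay lower, where 9.93% did. The 2 were Smad2, at 46.5, 61.5 and 52.2 CPM with PBS and 38.7, 40.8 and 45.8 with bleomycin, and Tgfbr3, at 1.69, 3.07 and 1.99 against 0.907, 0.320 and 0.618. Tgfbr3 rested on 18, 3 and 22 UMIs with PBS and 9, 3 and 11 with bleomycin. The macrophage marker list itself summed to 11190, 11326 and 7916 CPM with PBS and 14612, 14859 and 13198 with bleomycin. The fibroblast list in this gate summed to 135, 141 and 45.7 CPM with PBS and 71.1, 42.1 and 29.1 with bleomycin. The part of both lists in these levels was not tested. Smad6 was at 0.469, 0 and 0.902 CPM with PBS, from 5, 0 and 10 UMIs, and at 3.73, 2.77 and 6.91 with bleomycin, from 37, 26 and 123 UMIs (log2 fold change 2.89, SE 0.63, adjusted p 0.192). In the PBS 2 library 3 UMIs would have been 3.07 CPM. Skil was at 112, 130 and 204 against 268, 215 and 251 CPM (0.77, adjusted p 0.363), Smad3 at 6.85, 8.20 and 7.13 against 14.1, 10.7 and 11.5 (0.82, adjusted p 0.290), and Tgfbr1 at 27.1, 28.7 and 34.5 against 44.7, 39.3 and 43.8 (0.57, adjusted p 0.356). Smad6 was called with the replicate block (3.09, adjusted p 0.0269), by DESeq2 (2.90, adjusted p 0.00239) and by edgeR without the filter on low counts (adjusted p 0.0447).

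In keratinocytes Smad7 was at 97.0 and 177 CPM in the libraries labelled WT PBS 1 and 3 and at 41.9, 19.9 and 47.3 with bleomycin (-1.85, SE 0.43, adjusted p 0.0847), and it was called with the block (-1.51, adjusted p 0.0275), by DESeq2 (-1.84, adjusted p 0.00703), without the filter on low counts (-1.96, adjusted p 1.98e-05) and without WT PBS 1 (-2.27, adjusted p 0.0317), where the PBS arm was 1 library, assumed to vary like the bleomycin libraries. Of the 8 members tested there, 6 lay lower without overlap, against 21.3% of genes. The gates of WT bleomycin 1, 2 and 3 held only 30, 44 and 50 keratinocytes. Smad7 rested on 9, 9 and 27 UMIs in them, against 165 and 1003 in PBS 1 and 3. Tgfbr1 rested on 4, 3 and 6 UMIs with bleomycin and Tgfbr2 on 5, 4 and 7. For members this low the lack of overlap may not exceed counting error. In Schwann cells Tgfbr3 was at 191 and 113 CPM with PBS and 63.1 and 62.5 with bleomycin (-1.08, adjusted p 0.119, and -1.07 with adjusted p 0.0426 with the block). Summed over all cells, Tgfbr3 was at 63.9, 75.9 and 35.7 CPM against 24.5, 18.7 and 14.4 (-1.44, adjusted p 0.0815, -1.42 with adjusted p 0.0246 with the block, and -1.40 with adjusted p 0.0372 without the filter), a value that also moves with how many fibroblasts a library held.

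**Figure D3:**
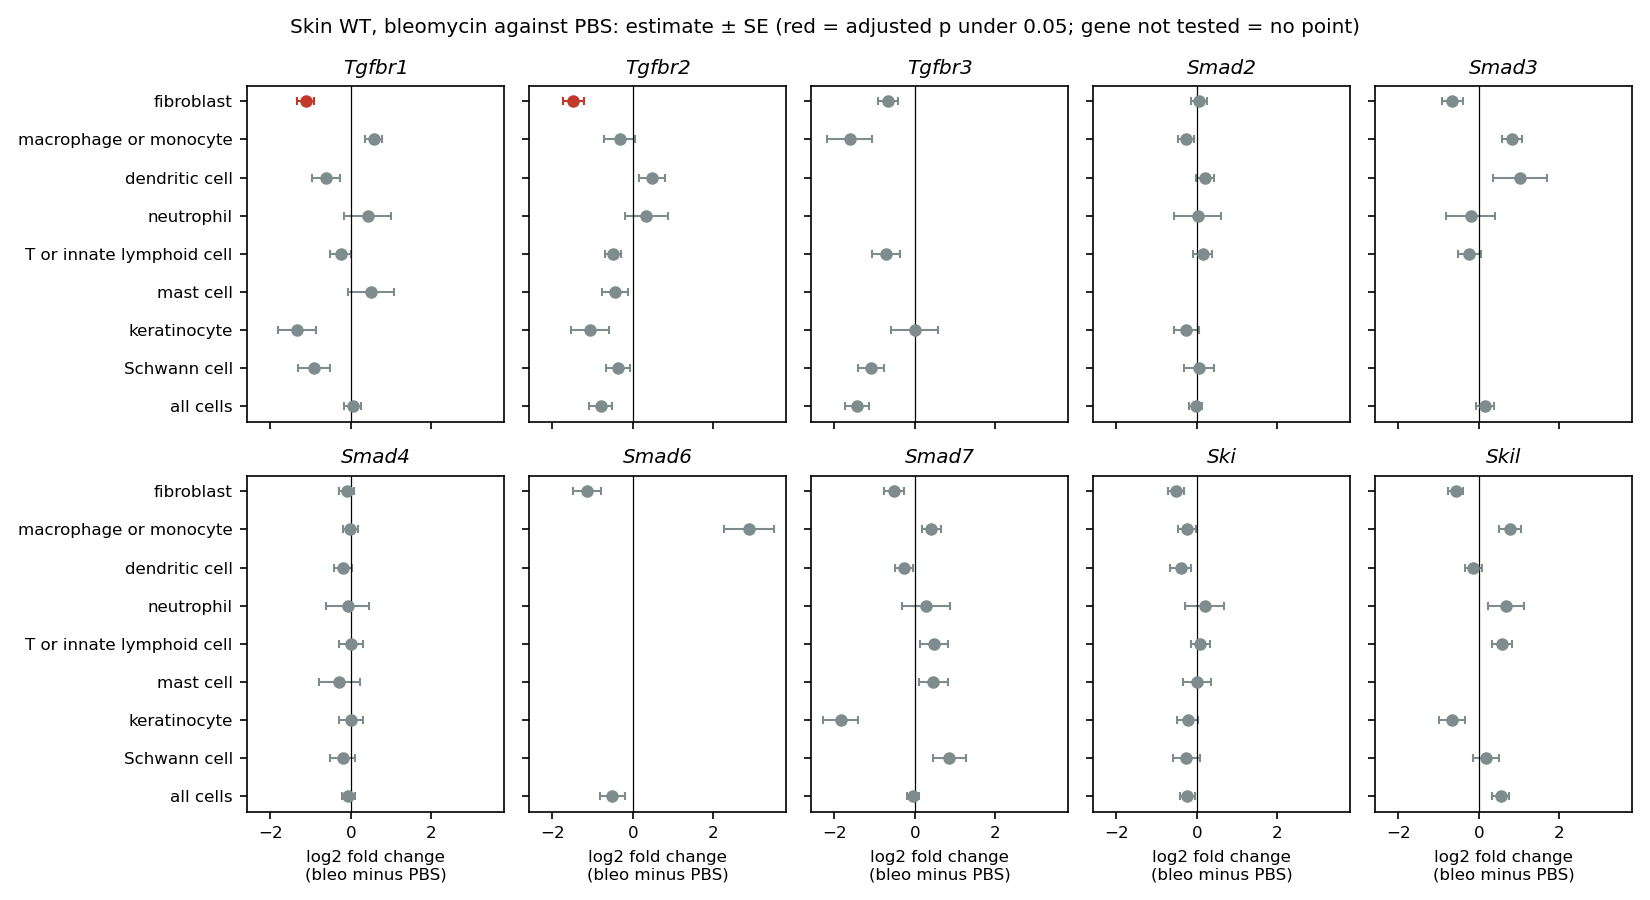
Log2 fold change of bleomycin over PBS in WT skin for each of the 10 genes in each tested cell type, with bars of 1 SE, red points for an adjusted p below 0.05, grey points for the rest and no point where a gene was not tested. The red points are Tgfbr1 at -1.13 and Tgfbr2 at -1.48 in fibroblasts.

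Schwann cells were the type in which genes of the pathway lists passed with bleomycin, in 2 PBS libraries, those labelled 1 and 3, against 2 bleomycin libraries. The TGF-β response gene Tgfbi, a matrix protein, rose from 57.9 ± 1.84 to 256 ± 40.0 CPM (log2 fold change 2.28, adjusted p 0.00621), and Pmepa1, a feedback inhibitor that binds Smads, from 588 ± 125 to 1528 ± 158 (1.50, adjusted p 0.0411). The BMP response gene Id2, an inhibitor of helix-loop-helix factors, fell from 347 ± 225 to 54.4 ± 20.5 CPM (-2.50, adjusted p 0.0183). In these cells 1.87% of 7448 genes were called. PBS 1 and 3 held 152148 and 335990 Schwann cell UMIs, where 3 UMIs would be 19.7 and 8.93 CPM. The SD of 1.84 CPM for Tgfbi therefore does not show the counting error. Bleomycin 1 and 3 held 1045741 and 2079395 UMIs. The median in PBS 1 was 4161.5 UMIs per cell, against 15048 and 14255.5 in bleomycin 1 and 3, and its part was not tested. Without shared barcodes Tgfbi still passed (2.30, adjusted p 0.0172), Pmepa1 had an adjusted p of 0.0576 (1.52) and Id2 of 0.0738 (-2.34), and without the libraries labelled WT PBS 1 and 3 no PBS library was left. Over all skin types these were 2 of 39 tests of TGF-β response genes and 1 of 27 of BMP response genes.

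The SARATg libraries, 1 per treatment in skin, were compared with WT in a model of 4 groups. No member passed in any of 82 pairs with PBS, with bleomycin, or for the difference of the bleomycin effect between genotypes, where 0.585%, 0.332% and 0.367% of all tests were called. At an unadjusted p below 0.05 there were 9, 7 and 7 pairs, against 8.77%, 6.34% and 6.11% of all tests, and DESeq2 called 5, 2 and 1 pairs, against 3.02%, 1.84% and 1.27%. Without the gene list as a covariate, fewer tests were called over all types in each of these comparisons, and again no member. Fewer member pairs then had an unadjusted p below 0.05. WT PBS 3, with 615 CPM of Zfyve9, was the only WT PBS library on the gene list of the SARATg libraries. In fibroblasts Tgfbr2 was at 475 CPM in SARATg PBS and 161 in SARATg bleomycin, and Tgfbr1 at 46.3 and 19.5. Both values with bleomycin lay inside or below the WT bleomycin range and below every library with PBS. The make-up of this gate differed too. Its fibroblast marker list summed to 137084 CPM in SARATg PBS, above every WT PBS library. In SARATg bleomycin it summed to 16316, below every WT bleomycin library. Pi16 was at 339 and 3.94 CPM in SARATg PBS and bleomycin, Mfap5 at 142 and 381, and Cthrc1 at 174 and 278. Crabp1 was at 24.9 and 846, Acta2 at 7.20 and 971, and Pdgfrb at 172 and 29.0. Their part in the member levels was not tested. Because 5 of the 6 libraries labelled WT, PBS 1 to 3 and bleomycin 1 and 2, carried human ZFYVE9 or a raised Zfyve9 count, these comparisons cannot tell the genotypes apart as labelled.

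Of the members with an unadjusted p below 0.05 against WT PBS, Skil in fibroblasts was at 83.4 CPM in SARATg PBS against 162, 150 and 172 in WT (-0.66, SE 0.28, adjusted p 0.517, and 0.0181 by DESeq2). The fibroblast gate of SARATg PBS differed in make-up from that of WT, as given above, and its part in this value was not tested. In dendritic cells Skil was at 135 against 226 and 229 CPM (-0.99, adjusted p 0.135), and the difference of its bleomycin effect between genotypes was 1.40 (SE 0.31, adjusted p 0.138). DESeq2 called both (adjusted p 0.00501 and 0.00285), as did edgeR without the filter on low counts (0.0180 and 0.00567). Smad7 in keratinocytes was at 53.5 CPM in SARATg PBS against 97.0 and 177 (-1.60, SE 0.46, adjusted p 0.0529, and 0.00939 by DESeq2), and the difference of its bleomycin effect was 1.80 (SE 0.61, adjusted p 0.168).

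Among the pathway lists, 4, 3 and 4 of 220 pairs passed in the same 3 comparisons, each resting on 1 SARATg library whose spread was taken from the other groups. With PBS, Bambi, a decoy receptor, was at 5.12 CPM in SARATg keratinocytes and at 16.5 and 105 in WT (-4.29, adjusted p 7.94e-05). Id2 was at 67.1 against 203 and 326 CPM in keratinocytes (adjusted p 0.0193) and at 471 against 910 and 1186 in dendritic cells (adjusted p 0.0338). Ccn2, a matricellular growth factor, had no UMI in SARATg PBS Schwann cells, where 3 UMIs would have been 12.1 CPM, and was at 105 and 107 in WT. With bleomycin, Ccn2 was at 203 against 55.5 and 33.7 CPM in Schwann cells and at 22.4 against 0 and 0.525 in neutrophils, and Tgfbi at 89.8 against 228 and 284 in Schwann cells (-1.64, adjusted p 0.0320). The difference of the bleomycin effect was estimated at 6.32 for Bambi and -2.37 for Tgfbi in keratinocytes and at 1.68 for Id2 in dendritic cells. Ccn2 in Schwann cells was the other pair. Each set 1 SARATg library per treatment against a WT PBS arm of PBS 1 and 3 only. Without shared barcodes the estimates of these 11 pairs kept their direction. That check could change little, since the SARATg libraries, WT PBS 3 and WT bleomycin 3 shared only 0.594% to 0.824% of their barcodes. DESeq2 did not call Ccn2 in Schwann cells with PBS or bleomycin, nor Tgfbi with bleomycin. It gave no adjusted p for Ccn2 in neutrophils.

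In kidney no member passed between AA and vehicle in WT mice in any of 87 tested pairs, where 0.0561% of all tests were called. At an unadjusted p below 0.05 there were 6 pairs, against 7.13% of all tests, and DESeq2 called 1, Smad7 over all cells, against 1.17%. The third vehicle library stood apart, with 16.4% proximal tubule and 43.8% T or innate lymphoid cells, near the AA libraries (8.34% to 34.7% and 41.8% to 57.2%), whereas vehicle 1 and 2 had 82.0% and 73.3% proximal tubule cells. Several members followed this split. Tgfbr1 in macrophages was at 302, 295 and 92.8 CPM with vehicle and at 87.1, 156 and 131 with AA (-0.85, SE 0.42, adjusted p 0.858). Without vehicle 3 the log2 fold change was -1.23 (SE 0.25, adjusted p 0.0543). The macrophage gate moved with the same split. Its own marker list summed to 18902, 23481 and 38418 CPM with vehicle and 37427, 36942 and 33354 with AA, the T or innate lymphoid list to 7.82, 19.0 and 77.9 against 82.0, 77.7 and 102, and Ptprc was at 1145, 916 and 385 against 543, 385 and 532. Their part in the result was not tested.

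In proximal tubule cells Tgfbr2 was at 15.1, 13.9 and 41.5 CPM with vehicle and at 45.3, 33.7 and 59.9 with AA (0.79, SE 0.46, adjusted p 0.531). Without vehicle 3, the vehicle library nearest to AA, it was called at 1.48 (SE 0.24, adjusted p 0.0405), as were 2.75% of genes in these cells and 4.51% over all types. Leukocyte markers in this gate moved with it. The T or innate lymphoid list summed to 1.45, 2.03 and 25.7 CPM with vehicle and 57.2, 40.1 and 84.6 with AA, the macrophage list to 33.9, 51.5 and 115 against 175, 105 and 220, and Ptprc was at 2.51, 4.13 and 6.75 against 16.5, 11.4 and 20.4. Their part in the result was not tested. Tgfbr3 was at 1.97, 4.64 and 5.06 against 6.45, 6.95 and 12.5 CPM, without overlap (0.99, SE 0.41, adjusted p 0.526), where 12.7% of genes lay higher without overlap. In T or innate lymphoid cells Tgfbr3 went from 7.07 ± 2.49 to 13.3 ± 0.763 CPM (0.89, adjusted p 0.888). There the macrophage list summed to 181, 49.5 and 329 CPM with vehicle and 388, 294 and 650 with AA. Ptprc was at 1250, 1234 and 767 against 805, 759 and 723 CPM, and their part was not tested. Smad7 in endothelium, highest of all kidney types, was at 259, 161 and 45.4 CPM with vehicle and 77.9 and 94.3 in the AA libraries with enough cells (-0.82, SE 0.65, adjusted p 1). In this gate the mural list summed to 43.5, 70.6 and 271 CPM with vehicle and 333 and 204 with AA, and the T or innate lymphoid list to 5.68, 0 and 85.0 against 70.2 and 424, and their part was not tested.

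**Figure D4:**
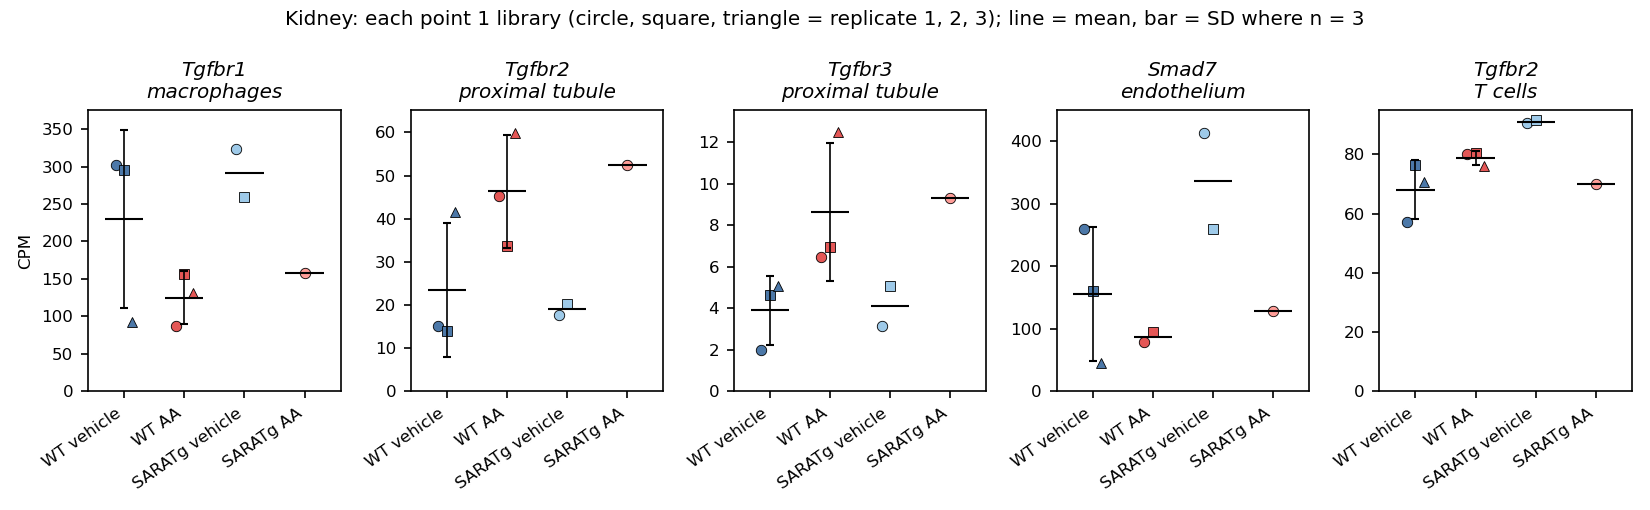
CPM per library in kidney for Tgfbr1 in macrophages, Tgfbr2 and Tgfbr3 in proximal tubule cells, Smad7 in endothelium and Tgfbr2 in T or innate lymphoid cells, 1 point per library with its shape for the replicate number, in the 4 groups, with a line at the mean and a bar of 1 SD where n = 3. In macrophages the third vehicle library lies at 92.8 CPM, within the AA points, and the other vehicle libraries near 300.

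Between SARATg and WT kidneys no member passed in 114 pairs with vehicle, with AA or for the difference of the AA effect, where 0.117%, 0.0396% and 0.121% of all tests were called. Unadjusted p-values below 0.05 numbered 12, 0 and 5, against 5.95%, 3.05% and 4.29% of all tests, and DESeq2 called 0 pairs in each, against 0.406%, 0.0914% and 0.219%. Of the 12 with vehicle, 5 were Smad7, all with a higher mean in SARATg. Vehicle 3 was the lowest WT library in 3 of the 5, at 45.4 CPM in endothelium, 19.5 in dendritic cells and 46.8 in the thick ascending limb. In endothelium it was at 413 and 260 CPM in SARATg vehicle and 259, 161 and 45.4 in WT (1.22, SE 0.52, adjusted p 1), and in intercalated cells at 85.9 and 82.3 against 30.5 and 46.8 (1.13, SE 0.33, adjusted p 0.602). Smad7 in endothelium was called by edgeR without the filter on low counts (1.28). Tgfbr2 in T or innate lymphoid cells was at 90.6 and 91.5 CPM against 57.0, 76.5 and 70.6 (0.54, SE 0.17, adjusted p 0.471). In this T cell gate the endothelial list summed to 53.7 and 41.8 CPM in SARATg vehicle and 26.3, 37.5 and 19.0 in WT vehicle, and its part was not tested. Zfyve9 went against the label in SARATg AA and also in WT AA 1, which at 163 CPM was above both SARATg vehicle libraries and is in the WT arm of each AA comparison. Of the pathway lists, Ccn2 and the BMP response gene Id1 passed with vehicle in collecting duct principal cells, from 1 SARATg library, and Id1 also for the difference of the AA effect. Id1 was at 26.8 CPM there and at 61.2 and 600 in the 2 WT libraries, and DESeq2 called neither gene (adjusted p 0.750 for Id1 with vehicle and 0.999 for the difference, and an unadjusted p of 0.0804 for Ccn2, for which it gave no adjusted p).

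The genes whose levels followed each member most closely over the 23 cell types of both tissues, among 14011 genes, are given by Pearson's r of mean log2(CPM + 1), as a description of types that share libraries and depth. For Tgfbr1 these were Hs3st3a1 (0.73), Pilrb2 (0.72) and 1700003F12Rik (0.71), for Tgfbr2 Rnf213 (0.85), Lgals9 (0.84) and Heg1 (0.83), and for Tgfbr3 Lamc1 (0.89), 2700081O15Rik (0.88) and Map1b (0.88). Smad2 was followed by Hnrnpk (0.90), Gnb1 (0.89) and Ewsr1 (0.87), Smad3 by Cd164, Bysl (both 0.71) and Fhl2 (0.70), and Smad4 by Tmem30a (0.85), Btbd7 (0.82) and Mcam (0.81). Smad6 went with Cavin2, Ephb4 (both 0.91) and Prpf40b (0.90), and Smad7 with Suco (0.82), Hmces (0.80) and Zfp622 (0.79). Ski went with Mex3c (0.88), Herpud2 (0.86) and P4ha1 (0.85), and Skil with Nfkb2 (0.90), Nup98 and Mef2d (both 0.89).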

How the data were processed

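Cells digested from skin or kidney and sorted for GFP were made into 10x Genomics 3′ libraries. The deposited matrices hold UMI counts per gene and cell, which the authors made with Cell Ranger (3.0.2 in the submitters' processing notes, and 3.0.2, 3.1.0 or 4.0.0 in the file headers) on mm10. Skin libraries labelled WT PBS 1 and 2 and WT bleomycin 1 and 2 list 32286 genes and the others 31053, and the 30406 shared identifiers were used, of which 597 carry another symbol in the other list. Counts at transcript ends do not separate isoforms.

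Cells with at least 200 genes and mitochondrial UMIs of at most 20% (skin) or 50% (kidney) were kept. Cells with the highest scrublet doublet scores, 0.8% per 1000 cells of the library, were left out (scanpy 1.11.5). A cell was gated to a type with at least 3 of its 10 markers and 2 more than the next type. UMIs were summed per library and type, for libraries with at least 20 cells and 50000 UMIs of the type, and expressed as CPM, which were computed here from the deposited counts. They were tested two-sided with edgeR 4.0.16 (quasi-likelihood, TMM, filterByExpr; R 4.3.3), with Benjamini-Hochberg adjustment over all genes within a type at 0.05. Treatment was tested in WT libraries, with at least 2 per group before any was left out, and genotype in a model of 4 groups, in skin with the gene list as a covariate. The fits were also run on simulated data as a check of the code, with an outcome not given here, which says nothing of these libraries. Levels of neighbouring types were compared on log2(CPM + 1) by an exact sign-flip permutation test. Alternatives were DESeq2 1.42.0, other filters, gates and libraries, and the replicate number as a block.

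The labels give replicate numbers. In skin, deviations from the group means of WT PBS and WT bleomycin libraries with the same number correlated with r from 0.19 to 0.35 in fibroblasts, 0.26 to 0.59 in macrophages and 0.14 to 0.57 over all cells, so the numbers were taken to pair these libraries, from the data and not from a stated design. In fibroblasts no pair with unlike numbers came above 0.05. Deviations from a group mean cancel out within the group, so high same-numbered values tend to lower the others. The low values of unlike numbers therefore add no separate support. Libraries 1 and 2, those of the longer gene list, also correlated across numbers, with up to 0.34 in macrophages and 0.25 over all cells. Both values lay above those of same-numbered pairs among these libraries, so number and gene list are not fully told apart. Keratinocytes and Schwann cells had 2 same-numbered pairs each (0.07 and 0.29, and 0.19 in both), and in keratinocytes PBS 1 correlated more with bleomycin 2 (0.23) than with bleomycin 1. With 2 libraries a group the Schwann values are equal by construction and count once.

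The members, gene lists and tests were chosen with earlier results of these data known. All 10 members are accounted for in each comparison. Per-library values are given for those called, and for each member the 3 genes most like it. Means ± SD are given for the types where a member is highest, except Smad2, Smad4 and Ski in kidney endothelium. Values given beside these for members that were not called were chosen after they were seen. The values of 1 gene of the TGF-β response list are not reported here.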

Additional observations from a re-analysis of the deposited data

Results flagged for a closer look

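The human ZFYVE9 entry is listed in 4 skin libraries only, all labelled WT, which should lack the transgene, and no comparison uses it. It was at 838 CPM in WT PBS 1, 187 in WT PBS 2, 87.4 in WT bleomycin 1 and 111 in WT bleomycin 2, above the level that a count of 0 allows. These are the libraries that share barcodes, 7.38% to 55.5% of each.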

How the results depend on the processing

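In WT skin with bleomycin the 2 called pairs of member and cell type became 8 with DESeq2, 5 without the filter on low counts (also Smad6 in macrophages, Smad7 in keratinocytes and Tgfbr3 over all cells), 6 with the replicate block, 1 with the stricter gate, 0 without shared barcodes and 0 without the libraries labelled WT PBS 1 and 3. Leaving out 1 library gave 0 to 6, the 6 without WT PBS 3 (Smad6 and Skil in macrophages, Tgfbr3 in Schwann cells, and Tgfbr2, Tgfbr3 and Skil over all cells). In Schwann cells that leaves 1 PBS library, assumed to vary like the bleomycin libraries. The fibroblast log2 fold changes stayed below 0 in every alternative run, from -1.32 to -1.03 for Tgfbr1 and from -1.69 to -1.16 for Tgfbr2, and 9 and 8 of these alternatives ended the call. For SARATg against WT with PBS the 0 calls became 5 with DESeq2, 2 without the filter, 1 with doublets kept, 2 without shared barcodes and 0 to 2 with 1 library left out, with Smad7 in keratinocytes among the calls wherever there was one. With bleomycin DESeq2 gave 2. For the difference of the bleomycin effect DESeq2, no filter and no shared barcodes gave 1 each, and leaving out 1 library 0 to 2, the 2 without WT bleomycin 1. For AA in WT kidney DESeq2 gave 1 (Smad7 over all cells). EdgeR without the filter gave 1, Skil in distal convoluted tubule cells, lower with AA (-1.72, adjusted p 0.00962). Leaving out 1 library gave 0 to 2, the 2 without WT vehicle 3 (Tgfbr2 in proximal tubule and over all cells). For SARATg against WT with vehicle no filter gave 1 (Smad7 in endothelium) and leaving out 1 library 0 to 1 (Tgfbr2 over all cells without WT vehicle 3). The cause was not tested. The replicate block changed no other count: 0 pairs were called with it in each comparison but bleomycin against PBS. In skin Schwann cells and neutrophils no replicate 2 library entered, so group and gene list already fixed the block. The genotype fits there were the same with and without it, and their unchanged count says nothing of stability. In kidney same-numbered libraries correlated with r of -0.27, 0.14 and 0.04 in macrophages and -0.47, 0.48 and 0.45 over all cells. Unlike numbers reached 0.34 in macrophages and 0.62 over all cells, so the numbers were not taken to mark pairs there. The only SARATg library of a group could not be left out. Neighbouring levels gave 0 differing pairs in each alternative run, but with so few libraries and so many pairs that test could hardly pass, so this says nothing of stability. WT PBS 2, with 3355217 UMIs, limits the precision of low genes such as Smad6. A level of 3 UMIs given as a limit covers counting error only.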
